A study of Mus musculus with 19 samples.

Results

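The 37 genes described here encode the enzymes and transporters of glycolysis and lactate metabolism, the oxygen-sensing proteins, and well-known targets of the hypoxia-inducible factors (HIFs). They were taken by name from a list, 37 of 51707 genes summed from the transcript tables. The rule used no measured value, but the list was chosen with earlier results of these data known. RNA was sequenced from 2 cell populations sorted by flow cytometry from pancreatic ductal adenocarcinomas of C57BL/6J mice. The tumours grew from orthotopically transplanted KPC organoids of the T-LOH type, and the mice received neratinib, an irreversible inhibitor of the ERBB receptor kinases, or vehicle for 2 weeks. There were 4 vehicle and 4 neratinib libraries of PDPN+ cells, labelled as cancer-associated fibroblasts (CAFs), and 6 vehicle and 5 neratinib libraries of EpCAM+ cells, labelled as epithelial. All groups share the organoid graft and the host strain. Sample titles carry a number of 5 digits, taken here as the animal, so that 8 mice gave both populations. Mice are named below by V (vehicle) or N (neratinib) and that number, as in V53175. The sources used here give no age.

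Glycolysis turns glucose into pyruvate: transporters bring glucose in, hexokinase and phosphofructokinase commit it to the pathway, and aldolase to pyruvate kinase carry it to pyruvate. Lactate dehydrogenase then makes lactate, which leaves through monocarboxylate transporters. When oxygen is low, the prolyl hydroxylases that mark HIF1A and EPAS1 (HIF2A) for degradation slow down, and HIF dimers bind short ACGTG or GCGTG motifs near many of these genes. HIF1A is controlled largely at the protein level, which RNA does not show. Pancreatic tumours are known for dense stroma and poor perfusion.

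The libraries held 30.3 to 48.1 M gene reads (M, mega) in PDPN+ cells and 39.4 to 75.4 M gene reads in EpCAM+ cells. Summed markers of the PDPN+ sort stood at 6475 to 10124 TPM, a unit scaled for transcript length and library size, in PDPN+ libraries against 10.2 to 106 in EpCAM+ libraries. Summed markers of the EpCAM+ sort stood at 286 to 1203 TPM in PDPN+ libraries against 17600 to 23885 in EpCAM+ libraries, so epithelial marker RNA was present in every PDPN+ library. Summed mesothelial markers stood at 268 to 1059 TPM in PDPN+ libraries and 573 to 1012 TPM in EpCAM+ libraries. Of these 4 markers, 3 were higher in PDPN+ cells and 1 did not pass. The part of epithelial or mesothelial RNA in the differences below was not tested. Mitochondrial genes took 6.14 to 19.4% of gene reads in PDPN+ libraries and 2.15 to 2.89% in EpCAM+ libraries. Genes with at least 10 reads numbered 11876 to 18552 in PDPN+ libraries and 16485 to 17920 in EpCAM+ libraries. The lowest PDPN+ counts were 12057 and 11876, in vehicle mice V53175 and V53188, and the other PDPN+ libraries held 13642 to 18552. The part of such uneven detection in the differences below was not tested. The PDPN+ vehicle libraries of mice V53175 and V53188 stood apart from the other PDPN+ libraries on the first principal component, and the EpCAM+ libraries of vehicle mice V53175 and V53176 and neratinib mouse N53178 from the other EpCAM+ libraries. Results are given with and without these 5 libraries where that matters. The 2 PDPN+ libraries that stood apart were not alike: on the second component V53175 lay at -200 and V53188 at 221. In sorted bulk samples, fewer cells of a kind and less RNA per cell cannot be told apart.

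Pkm, which encodes pyruvate kinase, makes its M1 and M2 forms by including 1 of 2 mutually exclusive exons of 167 bases each. Both exons are shown because the transcript shares below rest on telling them apart. They lie on the plus strand of chromosome 9 in GRCm38, the build of the annotation used, in a coding exon that is the ninth of 11 in either transcript. The M1 exon is at chr9:59675029-59675195 and the M2 exon at chr9:59675568-59675734. Capitals mark the 64 positions at which they differ. The other 103 positions, or 61.7%, are the same.
Pkm M1 exon: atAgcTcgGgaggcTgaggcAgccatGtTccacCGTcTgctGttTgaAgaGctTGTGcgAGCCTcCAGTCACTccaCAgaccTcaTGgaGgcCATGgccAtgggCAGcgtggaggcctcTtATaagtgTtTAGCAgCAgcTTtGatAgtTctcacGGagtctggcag
Pkm M2 exon: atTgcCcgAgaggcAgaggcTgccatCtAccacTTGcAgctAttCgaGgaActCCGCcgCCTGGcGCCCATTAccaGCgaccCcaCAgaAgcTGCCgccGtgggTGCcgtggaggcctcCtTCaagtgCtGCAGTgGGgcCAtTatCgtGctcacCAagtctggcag

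The HIF core motif was searched in RefSeq promoter windows of GRCm38.p6, each 300 bases long. A gene was counted where ACGTG or GCGTG, on either strand, occurred in any of its windows. Of the 37 genes, 34 matched the RefSeq table by symbol, and 31 of them (91.2%) held the core, against 12628 of 27025 genes (46.7%) in the whole table. By window, 39 of 48 (81.25%) held it, against 43.8% in the whole table. Many of the 37 were listed as known HIF targets, so a high share could be foreseen. The whole table was not matched to them for base composition. ACGTG alone occurred in 24 of the 34 (70.6%) and in 21.8% of all genes. The core occurred in genes on either side of the difference between the populations described below: 8 of 9 matched genes higher in PDPN+ cells, 14 of 14 lower there, and 9 of 11 that did not pass. The 4 stretches that follow lie upstream of the RefSeq start of their window and have the core in capitals. In GENCODE M21 the P4ha2 and Car9 genes begin before their stretches, at chr11:54100095 and chr4:43506966. P4ha1 and P4ha2 were higher in PDPN+ cells, Car9 was lower there, and Pgk1 had one of the smallest p-values under neratinib. The P4ha1 stretch is at chr10:59323118-59323295, the P4ha2 stretch at chr11:54100802-54100874, the Car9 stretch at chr4:43506995-43507024 and the Pgk1 stretch at chrX:106186935-106186988, all on the plus strand of GRCm38.p6. The Car9 stretch overlaps an annotated exon and was kept to 30 bases. A match is a description of the sequence and not evidence of binding.
P4ha1: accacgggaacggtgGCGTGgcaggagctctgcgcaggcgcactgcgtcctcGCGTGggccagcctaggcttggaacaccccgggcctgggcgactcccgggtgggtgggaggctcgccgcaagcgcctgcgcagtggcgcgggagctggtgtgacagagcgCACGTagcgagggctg
P4ha2: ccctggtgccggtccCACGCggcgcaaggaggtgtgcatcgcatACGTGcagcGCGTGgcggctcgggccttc
Car9: cctatttccgatgCACGTacagcccgtcca
Pgk1: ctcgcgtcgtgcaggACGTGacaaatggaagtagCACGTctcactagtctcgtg

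Levels between genes were compared in TPM, which is per length. In PDPN+ libraries the 5 most abundant of the 37 genes were Gapdh (984 ± 325 TPM, mean ± SD, n = 8), Eno1 (947 ± 284), Pkm (819 ± 224), Aldoa (667 ± 145) and Ldha (512 ± 146). The same 5 led in EpCAM+ libraries in another order: Pkm (2642 ± 527, n = 11), Eno1 (1618 ± 187), Aldoa (1346 ± 226), Gapdh (1173 ± 323) and Ldha (1042 ± 220). Each gene's range overlapped that of the next in the order of either population, with 1 exception among all 37: Pgam1 in EpCAM+ libraries (434 to 757 TPM) lay wholly above Pgk1 (189 to 338 TPM). At the low end, Pdk1 stood at 1.71 ± 2.14 TPM in PDPN+ libraries and Eno2 at 0.305 ± 0.201 TPM in EpCAM+ libraries. Tpi1, the triosephosphate isomerase, stood at 18.7 ± 24.6 and 14.7 ± 6.24 TPM, far under its neighbours in the pathway. Near-identical copies of Tpi1, Gapdh, Eno1, Pgam1, Pgk1 and Ldha elsewhere in the genome could share their reads, so these levels are uncertain. Ldhb was measured on 3 of its 4 annotated transcripts. The principal one, Ldhb-201, was not analysed here, so the values of Ldhb are not those of the whole gene.

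The 2 populations were compared first, over all 19 libraries. Of the 37 genes, 25 differed at an adjusted p under 0.05 in edgeR's quasi-likelihood test, 10 of them higher in PDPN+ cells and 15 lower. Among all 19626 genes tested, 49.3% differed, 24.3% higher and 25.0% lower in PDPN+ cells. The median log2 difference (PDPN+ minus EpCAM+) was -0.27 over the 37 genes and -0.13 over all genes. The median over the 37 was -0.46 without PDPN+ N53184, -0.14 without EpCAM+ V53179 and -0.17 without EpCAM+ N53194, and -0.63 in limma on log2(TPM + 1). Without the 5 libraries that stood apart it was -0.46. With the mouse as a replicate block, 21 of the 37 passed, and all 21 were among the 25. Egln1, Higd1a, Pdk1 and Pfkfb4 did not pass with the block (adjusted p = 0.107, 0.19, 0.0508 and 0.0953). Without the 5 libraries that stood apart, 23 passed, 9 higher and 14 lower, and 21 of these were among the 25. Within vehicle libraries alone 12 passed, and within neratinib libraries alone 16. Slc2a1, Pfkl, Aldoa, Aldoc, Pgk1, Eno1, Ldha, Ldhb, Pdk1, Car9, Higd1a, Hif1a and Egln1 were not called in vehicle libraries alone. There the adjusted p in edgeR was 0.191 for Pfkl, 0.136 for Car9 and 0.0682 for Slc2a1. Egln1, Egln3, Eno1, Epas1, Higd1a, Ldha, Pdk1, Pfkfb3 and Pfkfb4 were not called in neratinib libraries alone. Over the 9 alternatives other than leaving out 1 library, 5421 to 12346 of all genes passed.

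Values below are scaled CPM (read counts over library sizes scaled by TMM) unless TPM is named. The scale matters here: among genes over 10 TPM, the median difference between the populations was -0.63 in log2(TPM + 1) and -0.22 in log2 of the scaled counts, so TPM places PDPN+ libraries lower. In limma on log2(TPM + 1), 25 of the 37 genes again passed, but 6 were higher and 19 lower in PDPN+ cells. How all genes split by direction in that fit is not given here. On that scale Egln1, Hif1a, Higd1a and Pfkfb4 no longer passed, Adm, Ankrd37, Pfkp and Slc16a1 did, and the Higd1a difference turned from 0.50 to -0.02.

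**Figure D1:**
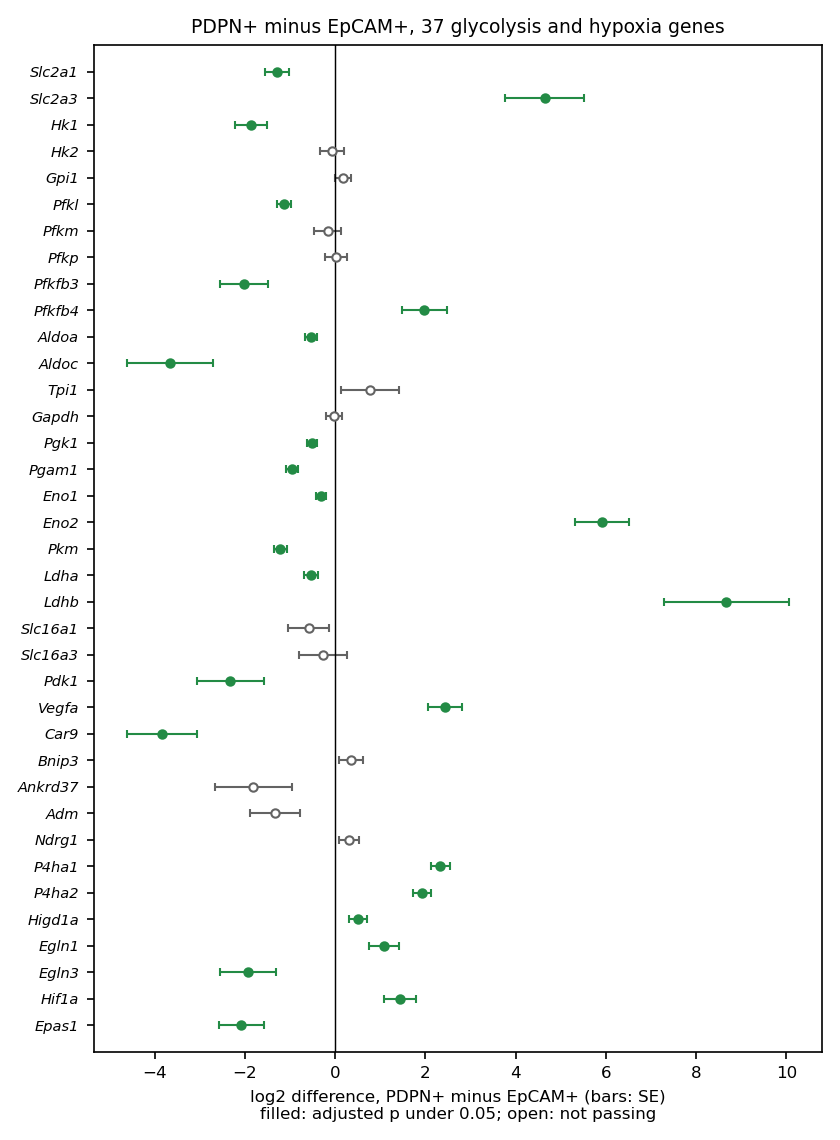
Log2 difference between PDPN+ and EpCAM+ libraries (x axis, PDPN+ minus EpCAM+) for each of the 37 genes (y axis, in pathway order), as estimate and SE over 8 and 11 libraries. Filled points passed an adjusted p under 0.05: 10 lie to the right of 0 and 15 to the left, with Ldhb at 8.67 and Car9 at -3.83 at the ends.

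Glucose transporters differed in opposite directions. Slc2a1 (ENSMUSG00000028645) encodes GLUT1, the widespread glucose transporter and a HIF target. It ranged from 17.9 to 235 CPM in PDPN+ libraries (median 103) and from 163 to 343 CPM in EpCAM+ libraries (median 233), with 7 of 8 PDPN+ libraries under every EpCAM+ library. Its log2 difference was -1.28 (SE 0.27, adjusted p = 5.93e-04). Slc2a3 encodes GLUT3, a transporter of higher affinity. It ranged from 0.316 to 99.1 CPM in PDPN+ libraries (median 34.5) and from 0.176 to 6.01 CPM in EpCAM+ libraries (median 0.760), a log2 difference of 4.64 (SE 0.87, adjusted p = 2.16e-04). The ranges of Slc2a3 overlapped through the PDPN+ libraries of mice V53175 and N53178, which held 0.316 and 1.83 CPM. Slc2a1 was still the more abundant transporter per length in PDPN+ libraries, at 42.5 ± 23.3 TPM against 9.68 ± 7.45 TPM for Slc2a3.

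At the first committed steps, 1 hexokinase and 1 phosphofructokinase were lower in PDPN+ cells. Hk1, the constitutive hexokinase, ranged from 32.1 to 151 CPM in PDPN+ libraries (median 55.2) and from 66.1 to 386 CPM in EpCAM+ libraries (median 295), a log2 difference of -1.87 (SE 0.35, adjusted p = 2.42e-04). The 3 lowest EpCAM+ values of Hk1 belonged to the libraries that stood apart, and the ranges overlapped through them. Pfkl, the liver-type phosphofructokinase, ranged from 106 to 358 CPM (median 146) against 276 to 471 CPM (median 391), with 6 of 8 PDPN+ libraries under every EpCAM+ library and a log2 difference of -1.13 (SE 0.16, adjusted p = 1.47e-05). Hk2, the inducible hexokinase, gave -0.07 (SE 0.27), Pfkp, the platelet-type form, 0.02 (SE 0.24), Pfkm, the muscle-type form, -0.16 (SE 0.30) and Gpi1, the isomerase between these steps, 0.18 (SE 0.18). None of these 4 passed. The PFKFB enzymes, which set the level of fructose-2,6-bisphosphate and so the speed of phosphofructokinase, differed in opposite directions. Pfkfb3 ranged from 0.823 to 61.3 CPM in PDPN+ libraries (median 22.3) and from 48.5 to 156 CPM in EpCAM+ libraries (median 95.3), a log2 difference of -2.01 (SE 0.53, adjusted p = 0.00386). Pfkfb4 ranged from 3.50 to 108 CPM (median 36.6) against 4.98 to 17.2 CPM (median 9.01), a log2 difference of 1.98 (SE 0.50, adjusted p = 0.00274).

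From aldolase to enolase, 5 of 8 genes were lower in PDPN+ cells and 1 higher. Among the genes that were lower, the largest difference was in a minor isozyme. Aldoc, aldolase C, ranged from 0 to 27.0 CPM in PDPN+ libraries (median 3.52) and from 46.2 to 70.9 CPM in EpCAM+ libraries (median 50.9). The groups did not overlap, and 3 of 8 PDPN+ libraries held 0 reads of Aldoc. By read depth alone, that allows up to 0.110 CPM in the shallowest library. Its log2 difference was -3.65 (SE 0.96, adjusted p = 0.00384). Aldoa, the main aldolase, ranged from 597 to 1130 CPM (median 875) against 947 to 1553 CPM (median 1143), a log2 difference of -0.53 (SE 0.13, adjusted p = 0.00202). The annotation holds 2 gene IDs named Aldoa, and only the first was counted here. Pgam1, phosphoglycerate mutase, ranged from 192 to 385 CPM (median 314) against 479 to 845 CPM (median 547) and did not overlap, at -0.96 (SE 0.14, adjusted p = 1.05e-05). Pgk1, phosphoglycerate kinase, gave -0.51 (SE 0.11, adjusted p = 0.00103). Eno1, the ubiquitous enolase, ranged from 841 to 2150 CPM in PDPN+ libraries (median 1748) and from 1772 to 2543 CPM in EpCAM+ libraries (median 2001). Its log2 difference was -0.31 (SE 0.12, adjusted p = 0.0299), and it did not pass without the libraries that stood apart. Eno2, the neuronal enolase, went the other way. It ranged from 1.15 to 52.7 CPM in PDPN+ libraries (median 24.2) and from 0.113 to 0.812 CPM in EpCAM+ libraries (median 0.354), did not overlap, and gave 5.92 (SE 0.59, adjusted p = 1.75e-07). Eno1 remained the more abundant enolase of PDPN+ cells, at 947 TPM against 11.6 TPM for Eno2. Gapdh, glyceraldehyde-3-phosphate dehydrogenase and a frequent reference gene, ranged from 651 to 1422 CPM in PDPN+ libraries (median 946) and from 550 to 1339 CPM in EpCAM+ libraries (median 973). Its log2 difference of -0.02 (SE 0.18) did not pass, nor did Tpi1 at 0.77 (SE 0.64).

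At the end of the pathway, Pkm (ENSMUSG00000032294) ranged from 935 to 2213 CPM in PDPN+ libraries (median 1740) and from 2708 to 5278 CPM in EpCAM+ libraries (median 4057). The groups did not overlap, and the log2 difference was -1.21 (SE 0.14, adjusted p = 1.04e-06). Ldha, which favours the making of lactate, ranged from 365 to 1074 CPM (median 742) against 677 to 1295 CPM (median 1078), at -0.53 (SE 0.15, adjusted p = 0.00769). Pdk1, which keeps pyruvate out of the mitochondrial pyruvate dehydrogenase reaction, ranged from 0.170 to 16.9 CPM (median 2.77) against 11.6 to 63.9 CPM (median 18.1), at -2.32 (SE 0.74, adjusted p = 0.0139). Without the libraries that stood apart, Pdk1 gave -1.27 and did not pass (adjusted p = 0.141). The 3 transcripts of Ldhb that were measured ranged from 0 to 31.4 CPM in PDPN+ libraries (median 10.4). They held 0 reads in 5 of 6 vehicle and 4 of 5 neratinib EpCAM+ libraries, with at most 9 reads in any. The fitted log2 difference of 8.67 (SE 1.39, adjusted p = 4.17e-05) concerns these transcripts only. The 2 lactate transporters did not pass. Slc16a1 (MCT1) ranged from 5.52 to 154 CPM in PDPN+ libraries (median 63.7) and from 35.2 to 132 CPM in EpCAM+ libraries (median 98.3), at -0.59 (SE 0.46). Slc16a3 (MCT4), the transporter tied to lactate export, ranged from 23.7 to 170 CPM (median 49.2) against 9.07 to 161 CPM (median 74.0), at -0.27 (SE 0.53).

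**Figure D2:**
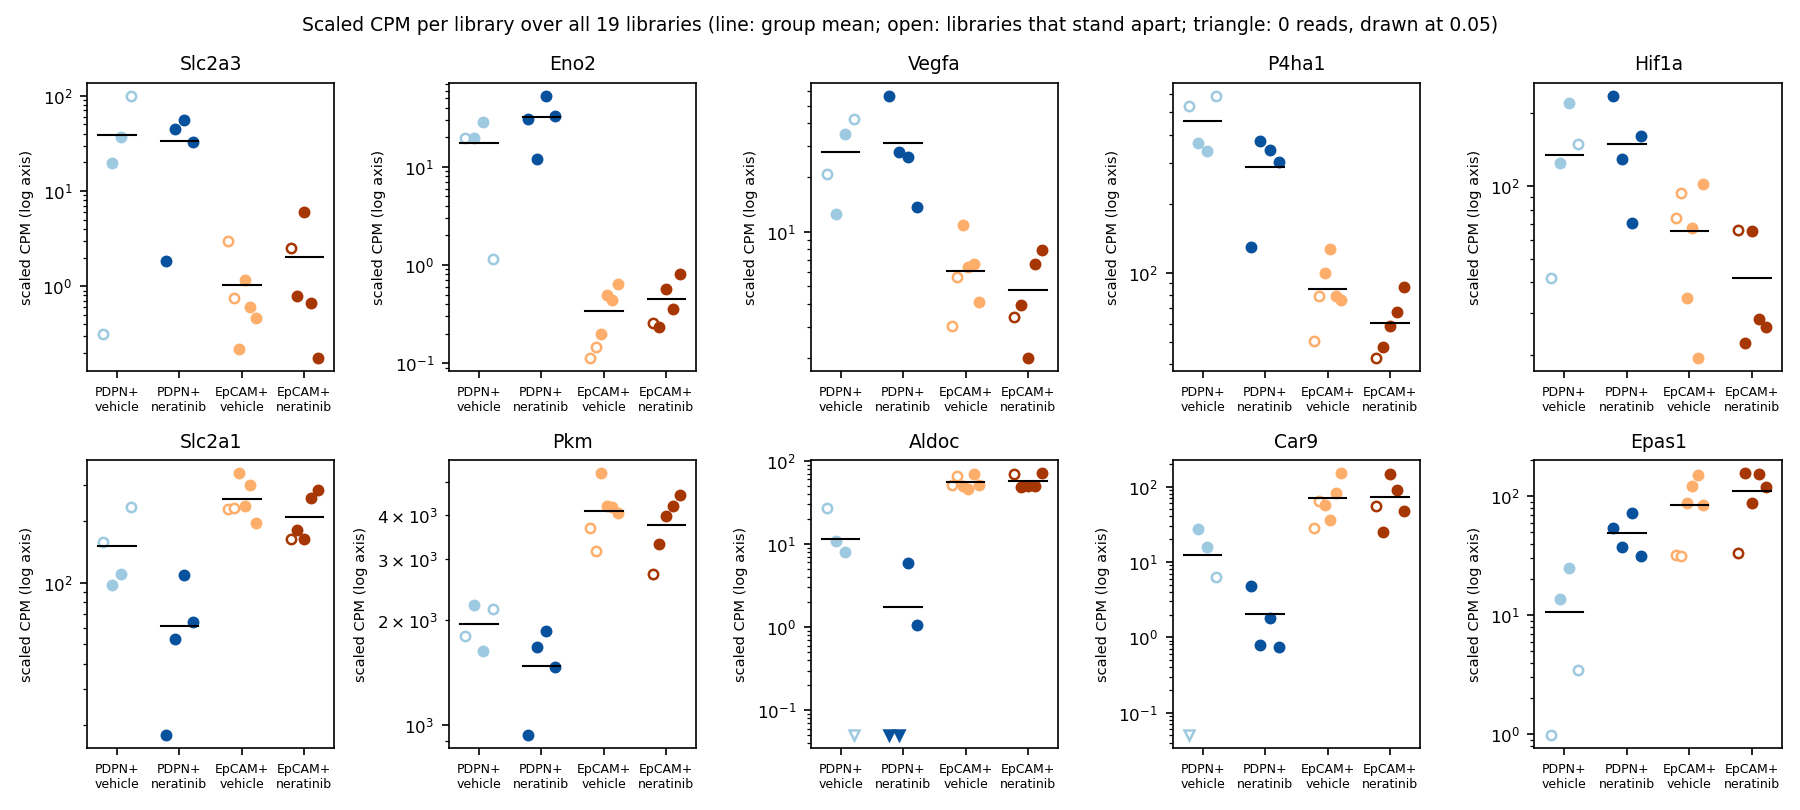
Scaled CPM (y axes, log scale) of 10 genes in each of the 19 libraries, by population and treatment (x axes), with the group means as lines, open points for the libraries that stood apart and triangles for 0 reads. Slc2a3, Eno2, Vegfa, P4ha1 and Hif1a (upper row) were higher in PDPN+ libraries, and Slc2a1, Pkm, Aldoc, Car9 and Epas1 (lower row) lower. The groups did not overlap for Eno2, Vegfa, P4ha1, Pkm and Aldoc.

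The hypoxia targets outside glycolysis did not share 1 direction. Of 9, 4 were higher in PDPN+ cells, 1 lower, and 4 did not pass. P4ha1 (ENSMUSG00000019916) and P4ha2, the catalytic subunits of collagen prolyl 4-hydroxylase, were both higher. P4ha1 ranged from 130 to 589 CPM in PDPN+ libraries (median 355) and from 42.5 to 127 CPM in EpCAM+ libraries (median 75.9), a log2 difference of 2.34 (SE 0.22, adjusted p = 6.18e-08). P4ha2 ranged from 81.1 to 222 CPM (median 143) against 21.2 to 56.4 CPM (median 39.4), at 1.93 (SE 0.20, adjusted p = 3.10e-07). Neither overlapped between the populations. Vegfa, the angiogenic growth factor, ranged from 12.6 to 56.4 CPM in PDPN+ libraries (median 26.9) and from 2.01 to 10.9 CPM in EpCAM+ libraries (median 5.61). It did not overlap and gave 2.44 (SE 0.38, adjusted p = 2.89e-05). Vegfa was measured on 10 of its 13 annotated transcripts and 5 of its 8 coding ones, the principal one included. Higd1a, a mitochondrial survival protein, was higher by 0.50 (SE 0.20, adjusted p = 0.0429) and lost the call in 17 of the 19 fits that left out 1 library. Car9 (ENSMUSG00000028463), the surface carbonic anhydrase used as a marker of hypoxic tumour cells, was the target that was lower. It ranged from 0 to 27.0 CPM in PDPN+ libraries (median 3.30) and from 24.5 to 150 CPM in EpCAM+ libraries (median 56.8), at -3.83 (SE 0.78, adjusted p = 4.69e-04), with 7 of 8 PDPN+ libraries under every EpCAM+ library. Adm, the vasodilator adrenomedullin, gave -1.32 (SE 0.56, adjusted p = 0.0563) and Ankrd37 -1.81 (SE 0.86, adjusted p = 0.0908). Bnip3, a mitophagy receptor, gave 0.36 (SE 0.27) and Ndrg1 0.31 (SE 0.21). Adm and Ankrd37 passed with DESeq2 and without the libraries that stood apart.

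Oxygen-sensing genes split evenly, and the genes of the 2 HIF alpha subunits went in opposite directions. Hif1a ranged from 41.5 to 236 CPM in PDPN+ libraries (median 139) and from 19.5 to 102 CPM in EpCAM+ libraries (median 65.3), with 6 of 8 PDPN+ libraries above every EpCAM+ library. Its log2 difference was 1.44 (SE 0.36, adjusted p = 0.00241). Epas1 ranged from 0.979 to 71.6 CPM (median 28.2) against 31.4 to 156 CPM (median 87.4), with 4 of 8 PDPN+ libraries under every EpCAM+ library and a log2 difference of -2.08 (SE 0.50, adjusted p = 0.00208). The prolyl hydroxylases split likewise. Egln1 (PHD2), the main hydroxylase of HIF1A in normal oxygen, was higher in PDPN+ cells by 1.08 (SE 0.34, adjusted p = 0.0116), and lost the call without neratinib mouse N53184 among PDPN+ libraries (adjusted p = 0.0527). Egln3 (PHD3), itself a HIF target, ranged from 0.110 to 48.5 CPM in PDPN+ libraries (median 23.5) and from 58.5 to 152 CPM in EpCAM+ libraries (median 77.7) and did not overlap. It gave -1.93 (SE 0.62, adjusted p = 0.0148), with an adjusted p of 0.0544 without the libraries that stood apart.

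By the ranges of scaled CPM, 8 of the 37 genes did not overlap between the populations: Aldoc, Pgam1, Pkm and Egln3 were lower, and Eno2, Vegfa, P4ha1 and P4ha2 higher. That is 21.6% of the 37, against 19.1% of all genes tested. On the TPM scale 13 genes were separated, all lower in PDPN+ libraries (35.1%, against 22.1% of all genes). The 17 glycolytic enzymes together made up 0.467 ± 0.110% of TPM in PDPN+ libraries and 0.929 ± 0.164% in EpCAM+ libraries. This too is on the TPM scale, where the median over all genes above 10 TPM was already lower in PDPN+ libraries, at -0.63 in log2(TPM + 1).

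Isozyme shares compare genes within a library and so do not depend on how libraries are scaled to each other. Each share was tested by an exact two-sided permutation test over libraries, with Benjamini-Hochberg adjustment over 15 tests (5 shares in 3 comparisons). Hk2 made up 57.3 ± 19.6% of the TPM of Hk1 and Hk2 in PDPN+ libraries (n = 8) and 31.1 ± 15.7% in EpCAM+ libraries (n = 11), a difference of 26.2 percentage points (exact permutation p = 0.00786, adjusted p = 0.0393). Over the 8 mice with both populations the share was higher in PDPN+ cells in 7, with an exact sign-flip p of 0.0156 (adjusted p = 0.0781). In EpCAM+ libraries the Hk2 share was 42.8, 59.4 and 59.9% in the libraries that stood apart and 17.3 to 28.0% in the other 8. In PDPN+ libraries it ran from 27.3 to 77.4%. Without the 5 libraries the difference was 34.2 points (exact permutation p = 0.00133, adjusted p = 0.00999), but leaving out 1 library ended the call in 13 of 19 cases.

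Pfkp made up 37.2 ± 13.0% of the TPM of the 3 phosphofructokinase genes in PDPN+ libraries and 21.4 ± 2.89% in EpCAM+ libraries. The difference was 15.7 points (exact permutation p = 8.47e-04, adjusted p = 0.00635). It was higher in PDPN+ cells in 7 of the 8 paired mice (exact sign-flip p = 0.0156, adjusted p = 0.0781). EpCAM+ libraries kept to a narrow range of 17.1 to 25.2%, whereas PDPN+ libraries spread from 19.4 to 57.7%. Slc16a3 made up 68.0 ± 19.7% of the TPM of Slc16a1 and Slc16a3 in PDPN+ libraries and 56.5 ± 28.4% in EpCAM+ libraries (exact permutation p = 0.337, adjusted p = 0.632). The EpCAM+ libraries that stood apart held Slc16a3 shares of 12.8, 14.9 and 16.9%, and the other 8 held 58.3 to 87.4%. The measured Ldhb transcripts made up 4.86 ± 2.90% of the TPM of Ldha and Ldhb in PDPN+ libraries and 0.00551 ± 0.0124% in EpCAM+ libraries (exact permutation p = 3.18e-04, adjusted p = 0.00476), with the limit on Ldhb given above. Over the paired mice it was higher in PDPN+ cells in 7 of 8 and did not pass (exact sign-flip p = 0.0156, adjusted p = 0.0781).

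For Pkm, the transcript with the M1 exon (Pkm-202) made up 10.3 ± 3.03% of the TPM of the M1 and M2 transcripts in PDPN+ libraries and 7.78 ± 1.63% in EpCAM+ libraries. The M2 transcript (Pkm-201) was thus the larger part in all 19 libraries: the highest M1 share was 16.0%, in the PDPN+ library of vehicle mouse V53175, and the lowest 4.57%, in the EpCAM+ library of neratinib mouse N53194. The difference of 2.52 points had an exact permutation p of 0.0322 and did not pass after adjustment (adjusted p = 0.121). Over the paired mice it was higher in PDPN+ cells in 6 of 8 (exact sign-flip p = 0.0859). Without the libraries that stood apart it was 1.67 points (exact permutation p = 0.158).

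**Figure D3:**
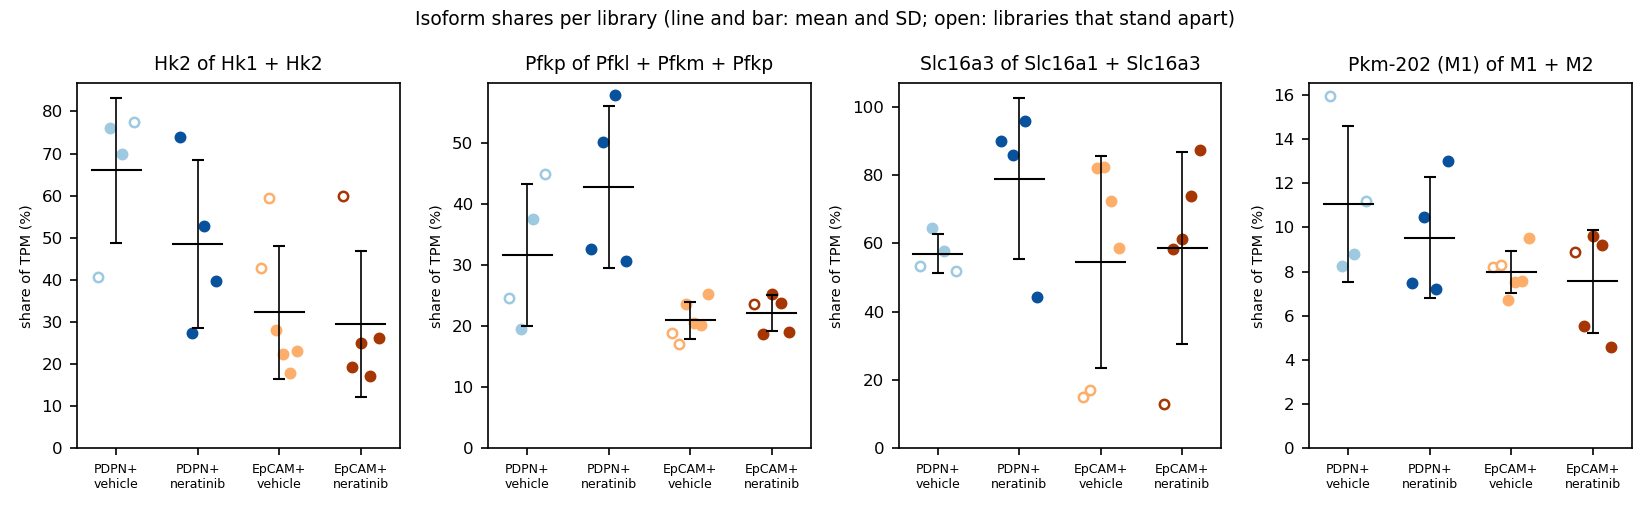
Share of TPM (y axes, %) of Hk2, Pfkp, Slc16a3 and the M1 transcript of Pkm in each of the 19 libraries, by population and treatment (x axes), with mean and SD. The open points are the 5 libraries that stood apart: 3 of them hold the lowest Slc16a3 shares (12.8 to 16.9%) of all EpCAM+ libraries. M1 stayed at or under 16.0% in every library.

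Neratinib was then compared with vehicle in PDPN+ cells, 4 libraries against 4. None of the 37 genes passed an adjusted p under 0.05 in edgeR, as was the case for all genes (0% of 14437 tested). At an unadjusted p under 0.05 there were 4 of the 37 (10.8%) and 331 of all genes (2.29%). DESeq2 and limma on log2(TPM + 1) also called 0 of the 37, and 12 and 1 of all genes. Point estimates were negative for 27 of the 37 genes, with a median log2 difference of -0.31 (neratinib minus vehicle). Of all genes 47.2% were negative and their median was 0.06. Among genes over 10 TPM, the median was -0.06. Without the 2 vehicle libraries that stood apart, the median over the 37 genes was -0.21, and without N53184 it was -0.53.

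The gene with the smallest p was Pfkl. Its vehicle libraries held 343, 300.4, 174 and 141 CPM (mice V53175, V53179, V53185 and V53188) and its neratinib libraries 99.5, 134, 101 and 119 CPM (mice N53178, N53180, N53184 and N53194). All neratinib libraries lay under all vehicle libraries. The log2 difference was -1.08 (SE 0.33, adjusted p = 1.00 in edgeR, as for the next 4 genes) and it was -1.11 without the 2 vehicle libraries that stood apart. With all 19 libraries in 1 fit the adjusted p was 0.0533. Pgk1 held 278, 226, 201.5 and 218 CPM in vehicle and 185, 133, 192 and 140 CPM in neratinib libraries, again without overlap, at -0.51 (SE 0.25).

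Slc2a1 held 152, 92.6, 100.2 and 223 CPM in vehicle and 16.4, 49.6, 104 and 59.4 CPM in neratinib libraries. The neratinib library of mouse N53184 lay among the vehicle values, and the 2 highest values were those of the vehicle libraries that stood apart. The log2 difference was -1.31 (SE 0.53) and -0.80 without those 2. Hk1 held 52.9, 30.6, 39.3 and 52.3 CPM in vehicle and 44.6, 142, 118 and 75.4 CPM in neratinib libraries, with overlap through mouse N53178 and a log2 difference of 1.12 (SE 0.43). Epas1 held 0.937, 13.0, 22.6 and 3.29 CPM in vehicle and 49.3, 35.6, 67.9 and 29.3 CPM in neratinib libraries. The groups did not overlap, and the log2 difference was 2.19 (SE 0.91). The 2 lowest values of Epas1 belonged to the vehicle libraries that stood apart, without which it was 1.297.

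By the ranges of scaled CPM, 3 of the 37 genes (8.11%) did not overlap between treatments, against 2.27% of all genes tested: Pfkl and Pgk1 were lower and Epas1 higher. In TPM there were 7 (18.9%, against 2.81% of all genes): Slc2a1, Aldoa, Pgk1, Eno1, Pkm and P4ha1 were lower and Epas1 higher. The genes that were separated thus depended on the scale, with Pgk1 and Epas1 on both. By role, 7 of 8 genes from aldolase to enolase, 5 of 6 of the pyruvate and lactate genes and 6 of 9 hypoxia targets had negative estimates. The 4 oxygen-sensing genes gave 2 of each sign. Leukocyte markers summed to 36.5 to 137 TPM in vehicle and 59.9 to 411 TPM in neratinib PDPN+ libraries, and epithelial markers to 309 to 1203 and 286 to 1159 TPM. Mitochondrial genes took 6.14 to 17.3% of gene reads in vehicle and 12.4 to 19.4% in neratinib PDPN+ libraries. Their part in these differences was not tested. No isozyme share passed. Slc16a3 gave the smallest p of them, with shares of 53.5, 64.6, 57.8 and 52.0% in vehicle and 89.9, 85.8, 96.0 and 44.3% in neratinib libraries (exact permutation p = 0.143, adjusted p = 0.429, the smallest possible p being 0.0286).

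**Figure D4:**
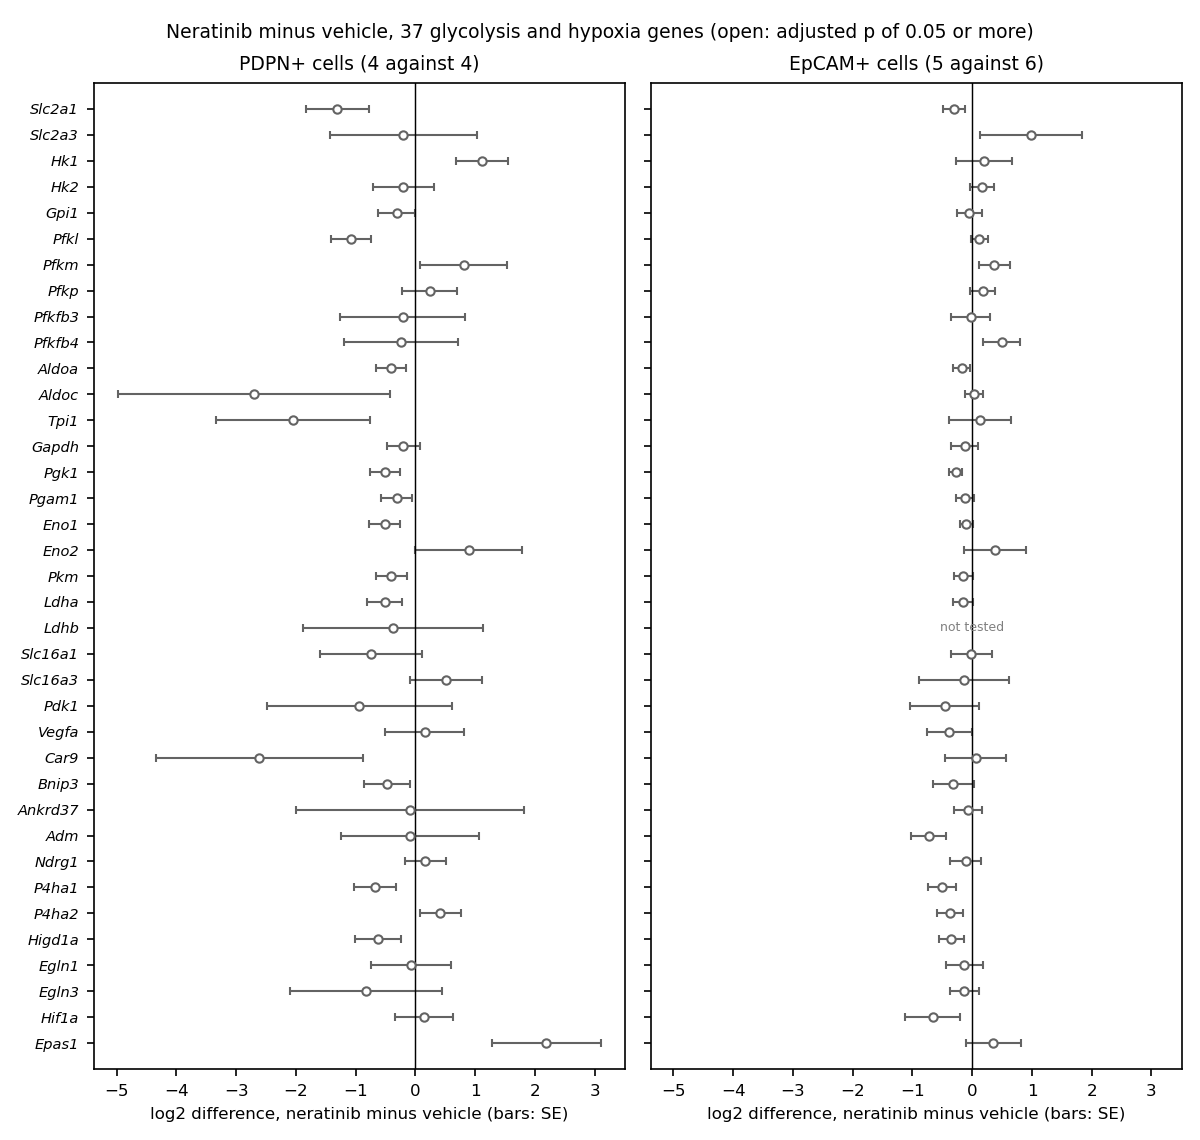
Log2 difference between neratinib and vehicle libraries (x axes, neratinib minus vehicle) for each of the 37 genes (y axis) in PDPN+ and in EpCAM+ cells, as estimate and SE. All points are open because none passed an adjusted p under 0.05, and 27 of 37 and 24 of 36 estimates are negative. Ldhb was not tested in EpCAM+ cells.

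In EpCAM+ cells, 5 neratinib libraries were compared with 6 vehicle libraries. Of 36 genes tested, 0 passed in edgeR, as was the case for all genes (0% of 17200). At an unadjusted p under 0.05 there were 2 of the 36 and 524 of all genes (3.05%). DESeq2 called 0 of the 36 and 10 of all genes. Estimates were negative for 24 of the 36, with a median log2 difference of -0.11, against 50.2% negative and a median of 0.00 over all genes. The median over the 36 was -0.02 without V53179 and -0.05 without either N53178 or N53180, and in limma on log2(TPM + 1) it was -0.03 over the 34 genes tested there. None of the 36 was separated between the treatments in scaled CPM (0.238% of all genes were).

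The smallest p belonged to Adm, which ranged from 43.2 to 143 CPM in vehicle libraries (median 67.0) and held 49.9, 37.6, 43.6, 54.9 and 40.6 CPM in neratinib libraries (mice N53178, N53180, N53184, N53193 and N53194). The vehicle value of 143 CPM was that of mouse V53179, and the groups overlapped. The log2 difference was -0.72 (SE 0.29, adjusted p = 0.999 in edgeR, as for the next 3 genes) and -0.85 without the 3 libraries that stood apart. Pgk1 ranged from 293 to 390 CPM in vehicle libraries (median 332) and held 269, 222, 290, 314 and 299 CPM in neratinib libraries, at -0.28 (SE 0.12). P4ha1 ranged from 54.0 to 132 CPM (median 83.4) and held 44.4, 48.9, 64.0, 69.3 and 88.3 CPM, at -0.51 (SE 0.24). P4ha2 ranged from 31.1 to 58.9 CPM (median 44.9) and held 33.4, 21.8, 29.6, 41.2 and 48.3 CPM, at -0.38 (SE 0.22). All 4 groups of values overlapped between treatments. Of the 9 hypoxia targets, 8 had negative estimates and Car9 was the other, at 0.06 (SE 0.51). The 3 phosphofructokinase genes all had positive estimates, from 0.12 for Pfkl to 0.37 for Pfkm. Summed acinar markers ranged from 0.188 to 1330 TPM in vehicle libraries (median 199) and from 0.553 to 23.4 TPM in neratinib libraries (median 0.812). Their part in these differences was not tested.

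**Figure D5:**
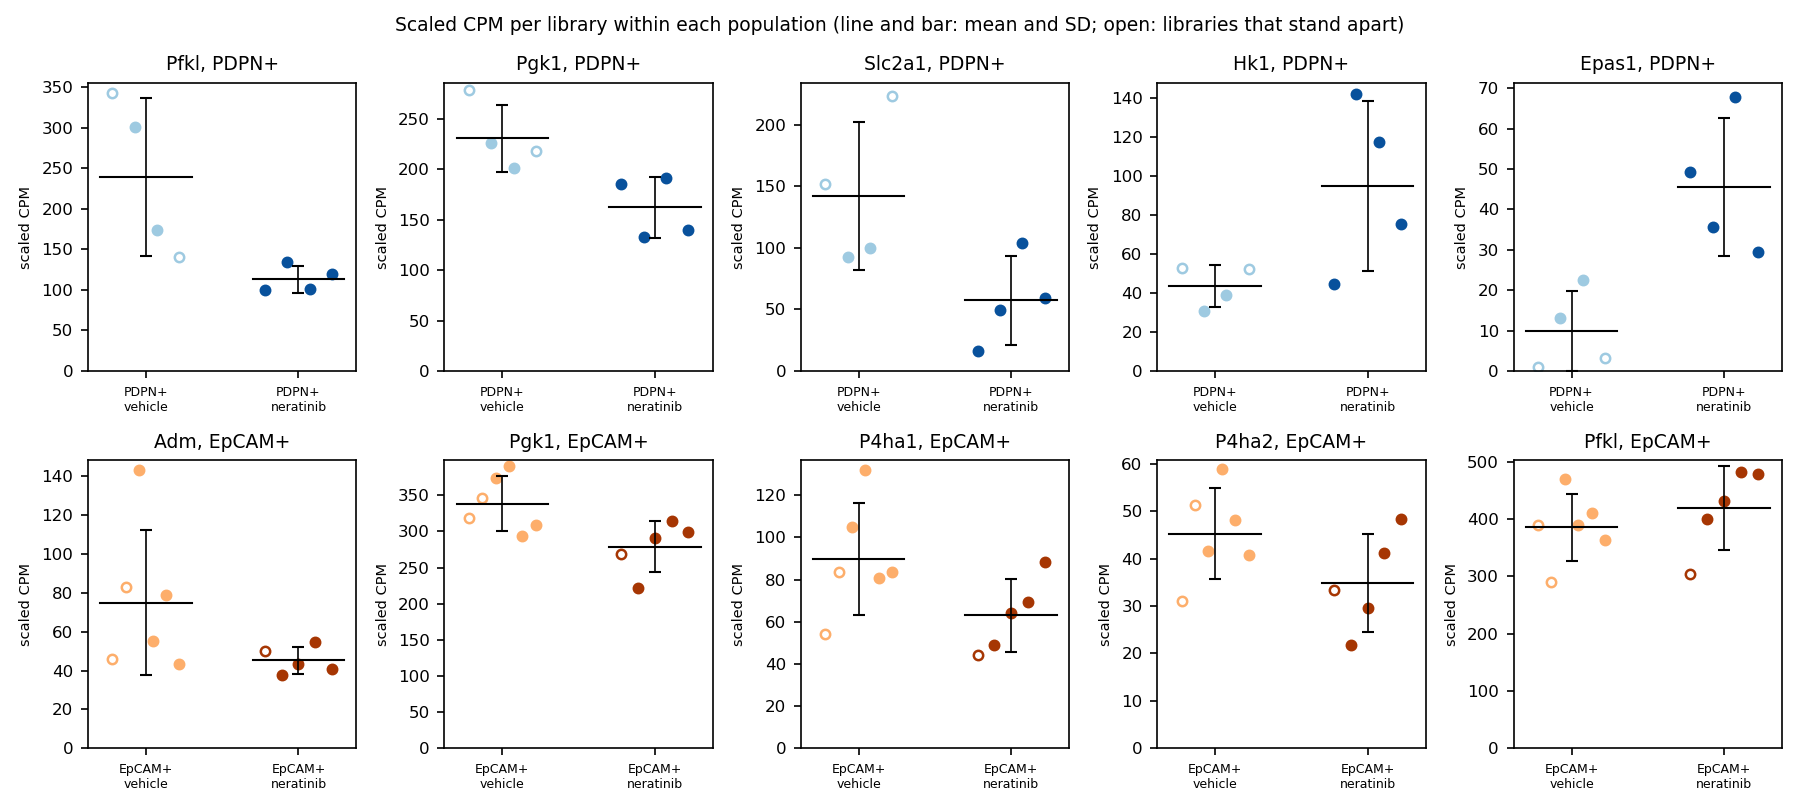
Scaled CPM (y axes) per library for genes with small p-values in PDPN+ cells (upper row) and EpCAM+ cells (lower row), vehicle and neratinib side by side (x axes), with mean and SD. In PDPN+ cells the neratinib libraries lie at 99.5 to 134 CPM for Pfkl and the vehicle libraries at 141 to 343 CPM. In EpCAM+ cells every gene shown overlaps between the treatments.

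The difference between the 2 neratinib effects was tested as an interaction over all 19 libraries. It passed for 0 of the 37 genes in edgeR, against 0.0662% of all genes (13 of 19626). At an unadjusted p under 0.05 there was 1 of the 37 and 11.2% of all genes. Pfkl had the smallest p: its neratinib effect was lower in PDPN+ than in EpCAM+ cells by a log2 difference of -1.20 (SE 0.32, adjusted p = 0.146). In EpCAM+ cells Pfkl ranged from 291 to 470 CPM under vehicle (median 390) and held 304, 401, 431, 483 and 479 CPM under neratinib. DESeq2 gave an adjusted p of 0.0254 for this interaction of Pfkl (1 of the 37, and 633 genes in all). With the mouse as a replicate block the estimate was -0.94 (adjusted p = 1). Leaving out the PDPN+ library of vehicle mouse V53188 gave an adjusted p of 0.0349. Car9 followed with -2.67 (SE 1.35, adjusted p = 0.493). Its PDPN+ libraries held 0, 25.6, 14.5 and 6.02 CPM under vehicle and 4.39, 0.748, 1.71 and 0.697 CPM under neratinib, and the 0 belonged to mouse V53175, which stood apart. Without the 5 libraries that stood apart the Car9 estimate was -3.36 (adjusted p = 0.179).

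The 3 EpCAM+ libraries that stood apart differed from the other 8 in several of the 37 genes, which is given as a description because the libraries were picked from the data. Scaled CPM did not overlap for 11 of 36 genes (30.6%), against 27.2% of all genes tested. In TPM it was 14 of 36 (38.9%), against 25.4% of all genes. Hk1 stood at 93.0, 69.6 and 85.5 CPM in the libraries of mice V53175, V53176 and N53178 and at 279 to 394 CPM in the other 8. Slc16a3 stood at 10.3, 10.7 and 9.48 CPM against 58.4 to 169 CPM. Pfkfb3 stood at 63.4, 51.0 and 56.1 CPM against 94.2 to 161 CPM, and Epas1 at 34.1, 33.03 and 35.1 CPM against 92.1 to 160 CPM. Pdk1 went the other way, at 66.2, 67.2 and 58.7 CPM against 11.9 to 37.8 CPM. Gpi1, Pfkm, Pfkp, Gapdh and Ndrg1 were also lower without overlap, and Egln1 higher. Of these libraries 2 came from vehicle mice and 1 from a neratinib mouse.

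The wider pathway was described from lists of related genes. Of 15 other glycolysis genes tested, 9 were lower in PDPN+ cells and 1 higher. Over all genes tested, 25.0% were lower and 24.3% higher, which is the background for the lists below as well. Pklr, the liver and red cell pyruvate kinase, had 0 reads in all 8 PDPN+ libraries and 46.8 ± 25.5 CPM in EpCAM+ libraries. That is at least 426-fold lower by read depth alone, taking 3 reads in the shallowest library as the floor. RNA lost before sequencing would not show in this floor. Hkdc1, a hexokinase-like protein, had reads in 1 of 8 PDPN+ libraries (21 reads) and stood at 47.6 ± 20.9 CPM in EpCAM+ libraries. Of 7 lactate and pH genes, Emb, embigin, was higher by 5.54 (SE 0.44) and Bsg, basigin, lower by a log2 difference of -2.60 (SE 0.26). Both are chaperones of monocarboxylate transporters. Of 5 gluconeogenesis genes 3 were lower and 0 higher. Fbp2, a fructose-bisphosphatase, had 0 reads in PDPN+ libraries against 85.9 ± 31.2 CPM, at least 783-fold lower by the same floor. Pcx, pyruvate carboxylase, gave -3.60 (SE 0.76). Of 12 genes of pyruvate entry into mitochondria, Dlat (-2.08, SE 0.26) and Dld (-0.97, SE 0.24), subunits of pyruvate dehydrogenase, were lower and Mpc1, a mitochondrial pyruvate carrier (0.67, SE 0.18), higher. Of 8 pentose phosphate genes, Tkt, transketolase (-1.53, SE 0.22), Taldo1 and Rpe were lower and H6pd (1.25, SE 0.33) higher.

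Of 24 other hypoxia targets, 9 were higher in PDPN+ cells and 4 lower, beside 24.3% and 25.0% of all genes. The 3 with the largest differences act on collagen: Lox (9.68, SE 0.58) and Loxl2 (4.09, SE 0.42), lysyl oxidases that cross-link it, and Plod2 (6.28, SE 0.61), a lysyl hydroxylase. Lox stood at 271 ± 143 CPM in PDPN+ and 0.331 ± 0.248 CPM in EpCAM+ libraries. The 4 that were lower were Hilpda, Ddit4, Kdm3a and Insig2, from -1.12 to -1.81. Of 7 HIF regulators, Egln2 (PHD1) was lower (-1.03, SE 0.30, adjusted p = 0.00837) and the other 6 did not pass. Under neratinib no gene of these lists passed in either population in edgeR. The estimates of the 24 other hypoxia targets were negative for 20 in PDPN+ cells (median -0.64) and for 16 in EpCAM+ cells (median -0.13). Of the 85 listed genes outside the 37, the 67 tested in PDPN+ cells gave a median of -0.09 and the 76 tested in EpCAM+ cells 0.02.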

How the data were processed

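Bulk RNA was sequenced from 19 libraries of sorted PDPN+ and EpCAM+ cells. The deposited tables give, per the file headers, an estimated count and a TPM for each of 147828 transcripts, made by the authors with Salmon 1.9.0 per the submitters' processing notes, which also name GRCm39. The cDNA was made with a low-input kit and its PCR cycles followed the RNA amount, per the labels' protocols. A strand setting is not given in the sources used here.

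Of the transcripts, 137063 were matched to GENCODE M21 gene names on GRCm38. Estimated counts and TPM were summed to 51707 genes. The 10765 unmatched transcripts took 4.07 to 8.96% of reads in PDPN+ and 1.77 to 2.26% in EpCAM+ libraries and were left out. Summed counts were rounded and tested with edgeR 4.0.16 (TMM, filterByExpr, quasi-likelihood) in R 4.3.3, with Benjamini-Hochberg adjustment over all genes tested. The neratinib comparisons were fitted within a population. The population comparison averaged over treatments, and the interaction used all 19 libraries. DESeq2 1.42.0 and limma 3.58.1 on log2(TPM + 1), for genes with a mean TPM of at least 1, were alternatives, as were DESeq2 size factors, no filter, effective-length offsets, a mouse block, single treatments and leaving out each library. Leaving out the libraries that stood apart was chosen after seeing the data. Shares of TPM were tested by exact permutation with scipy 1.17.1. Where 0 reads were seen, 3 reads set the floor, which counts read depth only. Fits were tested on simulated data. The labels do not say whether libraries were prepared separately beyond the animal. The p-values set differences against the spread between these libraries. The main comparison of populations treated the libraries of 1 mouse as independent.

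The mouse number in the labels pairs libraries of the same animal, so 8 mice entered the block. Their deviations from the group means correlated at -0.11 to 0.03. The 37 genes and the other lists were chosen with earlier results of these data known. Some genes were given with the value in every library, or with lowest, median and highest in groups of over 5 libraries. They were the 5 called with the largest differences in each direction between populations and the 4 with the smallest p in each neratinib comparison. The 2 with the smallest p in the interaction and the 5 most abundant were also among them. So was a set list (Slc2a1, Pfkl, Pkm, Ldha, Ldhb, Slc16a1, Slc16a3, Vegfa, Car9, Hif1a and Epas1). Others were given by their estimates, and up to 3 called genes were named of each related list. A gene of the related lists that this rule would name is not reported here.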

Additional observations from a re-analysis of the deposited data

Results flagged for a closer look

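In 168 checks of a single gene or share in a group of 4 to 6 libraries, 16 had 1 library far from the rest by Dixon's test. Chance flags about 1 in 20 groups. In PDPN+ neratinib cells, the library of mouse N53194 held 143 CPM of Slc16a1 (others 5.06 to 17.6) and 11.6 CPM of Pdk1 (others 0.305 to 2.02). The library of mouse N53184 held 161 CPM of Slc16a3 (others 21.7 to 45.1), and that of mouse N53178 held 22.2 CPM of Ankrd37 (others 0.0831 to 3.57). In PDPN+ vehicle cells, mouse V53175 held 77.7 CPM of P4ha2 (others 128 to 135) and 104 CPM of Tpi1 (others 5.73 to 7.58).

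In EpCAM+ neratinib cells, the library of mouse N53178 held 85.5 CPM of Hk1 (others 295 to 356), 58.7 CPM of Pdk1 (others 11.9 to 23.7) and an Hk2 share of 59.9% (others 17.3 to 26.3%). Mouse N53180 held 27.6 CPM of Higd1a (others 54.9 to 65.5), and mouse N53184 held 24.8 CPM of Tpi1 (others 3.94 to 9.10). In EpCAM+ vehicle cells, mouse V53175 held 3.20 CPM of Slc2a3 (others 0.231 to 1.21). The measured Ldhb transcripts had reads in 1 library of each EpCAM+ group: 0.194 CPM and a share of 0.0337% in neratinib mouse N53193, and 0.114 CPM and a share of 0.0270% in vehicle mouse V53176. The libraries of PDPN+ mouse V53175 and of EpCAM+ mice V53175, V53176 and N53178 are among the 5 that stood apart.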

How the results depend on the processing

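None of the 37 genes was called in either neratinib comparison under the 7 and 8 alternatives run, nor with any 1 library left out. Over all genes, DESeq2 called 12, limma 1 and the fit of all 19 libraries 111 in PDPN+ cells, and DESeq2 called 10 in EpCAM+ cells, where edgeR called 0. Between the populations, vehicle libraries alone gave 12 of the 37 and 5421 genes, and neratinib libraries alone 16 and 5838, against 25 and 9673 with more libraries. Leaving out 1 library gave 23 to 26 of the 37. The median difference over those of the 37 genes that were tested ran from -0.63 to -0.22 between populations, -0.42 to -0.21 under neratinib in PDPN+ cells and -0.16 to -0.03 in EpCAM+ cells over the alternatives, and from -0.46 to -0.14, -0.53 to -0.25 and -0.17 to -0.02 with 1 library left out. With limma on TPM the Higd1a difference was -0.017. The interaction called 633 genes with DESeq2 (1 of the 37), 1 with limma, 314 without the 5 libraries that stood apart, and 9 to 131 when 1 library was left out (0 to 1 of the 37), against 13. The cause was not tested.

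With the mouse as a replicate block, 21 of the 37 and 6792 genes passed between the populations, and 0 genes in the interaction. In the block, the share differences of Ldhb (4.86), Hk2 (27.0) and Pfkp (15.9 percentage points) did not pass (adjusted p = 0.0781). No other share difference had been called without the block, so none passed with it.

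Share differences under neratinib, none of which passed, changed sign without the libraries that stood apart for Pkm M1 in PDPN+ cells (1.02) and, in EpCAM+ cells, for Pfkp (-0.69) and Slc16a3 (-3.64). With 1 library left out they ran from -2.67 to 0.122 (Pkm M1) and -0.479 to 2.70 (Ldhb) in PDPN+ cells. In EpCAM+ cells they ran from -0.928 to 0.336 (Pkm M1), -0.00449 to 0.00673 (Ldhb), -10.3 to 2.73 (Hk2) and -3.74 to 15.7 (Slc16a3). The Hk2 share difference between populations ran from 23.3 to 30.5. Calls of Egln1 (0.79 to 1.17), Eno1 (-0.46 to -0.28) and Higd1a (0.29 to 0.55) each ended without at least 1 library. Eno1 lost its call without EpCAM+ vehicle mouse V53179 or neratinib mouse N53194.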
